A study of Homo sapiens with 12 samples.

Results

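The aminoacyl-tRNA synthetase genes measured here were 19 genes of cytosolic enzymes, 16 genes of mitochondrial enzymes, the mitochondrial methionyl-tRNA formyltransferase MTFMT, and the scaffold proteins AIMP1 and AIMP2. They are listed by gene symbol, with no threshold on a measured value, and all 38 were found among the 58721 genes of the count tables. The data come from ribosome profiling of HepG2, a human liver cancer cell line, 2 days after transient knockdown with an siRNA against IGF2BP3 (siIGF2BP3) or with a control siRNA (siControl). IGF2BP3 is an RNA-binding protein, and the study asked how it acts on its target transcripts. For each condition there were 3 Input libraries, which report transcript level, and 3 libraries of ribosome-protected fragments (RPF), or footprints. All cells received 100 µg/mL cycloheximide for 4 min before lysis, and RPFs of 28 to 30 nt were taken after RNase I digestion. The labels give the same protocol for the Input samples and do not describe how Input was prepared. The knockdown is transient and in 1 cell line, and no label says whether the libraries came from separate cultures, so the p-values measure the spread between libraries.

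The libraries held 11219750 to 31510601 counts. IGF2BP3 itself measured 133, 129 and 127 CPM in the siControl Input libraries and 103, 97.9 and 105 CPM in siIGF2BP3 Input, where CPM is the count scaled to the library total. Its footprints went from 74.6, 78.1 and 77.7 CPM to 21.9, 28.0 and 25.2 CPM. All 8 liver cell markers were above 1 CPM, with summed levels of 26982 to 49950 CPM over the 12 libraries. Of 8 markers of blood, endothelial and stromal cells, 6 did not reach 1 CPM in any library. CD68, at 19.7 to 27.9 CPM, and PECAM1, at 1.01 to 4.97 CPM, did. The sum of that list stayed between 21.7 and 33.1 CPM, most of it CD68. The liver marker sum was lower in siIGF2BP3, at 26982 to 27743 CPM against 30211 to 31022 CPM in Input and 44256 to 46587 CPM against 48346 to 49950 CPM in RPF; its part in the results below was not tested. Replicates 2 and 3 of siControl RPF differed by less than the sampling noise, with a mean chi-square per gene of 0.941, and count as 1 sample in every mean and SD. Replicate 1 of siIGF2BP3 RPF stood apart: set against replicates 2 and 3 it had a chi-square per gene that averaged 19.9 and 21.5, while those 2 gave 1.15 between themselves. Counts of calls and class medians that use it are therefore given with and without it. The fits entered siControl replicates 2 and 3 as separate libraries, and calls that were lost with both summed are named beside the results. No fit both summed them and left out siIGF2BP3 RPF replicate 1. All calls made without that library, in the members and in the gene lists, therefore lack this check.

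Aminoacyl-tRNA synthetases join each amino acid to its tRNA, which is the step that sets the meaning of a codon. The cytosol and the mitochondrion use separate sets of enzymes. The mitochondrial enzymes are encoded in the nucleus, translated in the cytosol and imported, and GARS1 and KARS1 give the enzyme of both compartments from the same gene. Several cytosolic enzymes, among them the bifunctional glutamyl-prolyl enzyme EPRS1, assemble with AIMP1 and AIMP2 in the multi-synthetase complex, and FARSA and FARSB are the subunits of a single phenylalanyl enzyme. In mitochondria MARS2 charges the methionine tRNA and MTFMT formylates it for initiation. Many cytosolic synthetase genes are known targets of ATF4, the transcription factor of the amino acid response, which binds C/EBP-ATF response elements.

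That element is shown first because the choice of genes did not use it and the compartments differ in how many members hold it, a difference given as counts without a test. TGATGNAA was searched on both strands in RefSeq promoters (GRCh38.p14), from 250 bases before the start site to 50 after it. No other motif was searched, so there was none to overlap with. The table held 32 of the 38 members, with 1 to 3 promoters each. The motif was present for 7 of 16 cytosolic enzymes (43.8%), for 1 of 14 mitochondrial enzymes (7.14%) and for neither AIMP1 nor AIMP2. It was present for 4.46% of all 27305 genes in the table, in 3.62% of all 35116 promoters of this length, and for 3 of 14 ATF4 targets of the list described below (21.4%). A match describes the letters and is not evidence of binding, and the measurements here do not bear on the factor. The 8 windows follow with the motif in capitals, each written 5′ to 3′ on the strand of the gene, with the position of the first capital counted from 0 at the start site.
IARS1, chr9:92293695-92293718 (- strand), position -13: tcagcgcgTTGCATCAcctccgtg
MARS1, chr12:57488056-57488079 (+ strand), position -4: ggttccggTTGCATCAgcgaggga
AARS1, chr16:70289678-70289701 (- strand), position -187: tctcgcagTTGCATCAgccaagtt
CARS1, chr11:3057410-3057433 (- strand), position -2: ggcggcggTTGCATCAgattctag
GARS1, chr7:30594837-30594860 (+ strand), position -33: cgcggcgaTTTCATCAtgctccga
NARS1, chr18:57621807-57621830 (- strand), position 14: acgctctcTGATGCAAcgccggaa
TARS1, chr5:33440959-33440982 (+ strand), position 2: cctttcgaTTGCATCAgctggtcc
YARS2, chr12:32756079-32756102 (- strand), position -197: cacactgcTGATGGAAaaattaag
In 6 of the 8, the element lies as its reverse complement, and 5 of these carry the same 8 letters, TTGCATCA. NARS1 and YARS2 hold it as written.

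Start codon contexts are shown for the 3 members with the highest and the 3 with the lowest RPF/Input in siControl, and for MTFMT and MARS1, which were called in translation efficiency; all 8 were picked by values given below. They were read from hg38 and the GENCODE release 44 canonical transcript, and capitals mark the base at -3, the start codon and the base at +4.
MARS2, start codon at chr2:197705406-197705408 (+ strand): tgcAccATGC
AIMP2, start codon at chr7:6009364-6009366 (+ strand): tctGccATGC
PARS2, start codon at chr1:54759159-54759161 (- strand): ggtGtcATGG
RARS2, start codon at chr6:87589955-87589957 (- strand): gtgGacATGG
AIMP1, start codon at chr4:106325010-106325012 (+ strand): gcaAaaATGG
CARS1, start codon at chr11:3057365-3057367 (- strand): ccaGccATGG
MTFMT, start codon at chr15:65029611-65029613 (- strand): gagGcgATGA
MARS1, start codon at chr12:57488091-57488093 (+ strand): ggcGaaATGA
A purine at -3 together with G at +4, the context known to favour initiation, was present in 22 of 38 members (57.9%) and in 43.5% of 19088 canonical protein-coding transcripts. Of the 8 genes shown, CARS1, AIMP1, RARS2 and PARS2 had both, and the other 4 had the purine without the G. Both were present in 15 of the 26 members called above equal shares in RPF/Input, in 4 of the 6 called below and in 3 of the 6 not called.

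All 38 members were detected in every library. GARS1, the glycyl enzyme, measured 283, 307 and 300.0 CPM in the siControl Input libraries and 294, 293 and 289.7 CPM in siControl RPF. AARS1, the alanyl enzyme, measured 207, 235 and 232 CPM in Input and 422, 416 and 431 CPM in RPF. PARS2, the mitochondrial prolyl enzyme, measured 1.92, 2.16 and 1.35 CPM in Input and 8.44, 8.58 and 8.62 CPM in RPF. The libraries of a group lay close together in these genes except for PARS2 in Input, the lowest of them. CPM is not scaled to gene length and is used here to compare libraries, not genes.

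**Figure D1:**
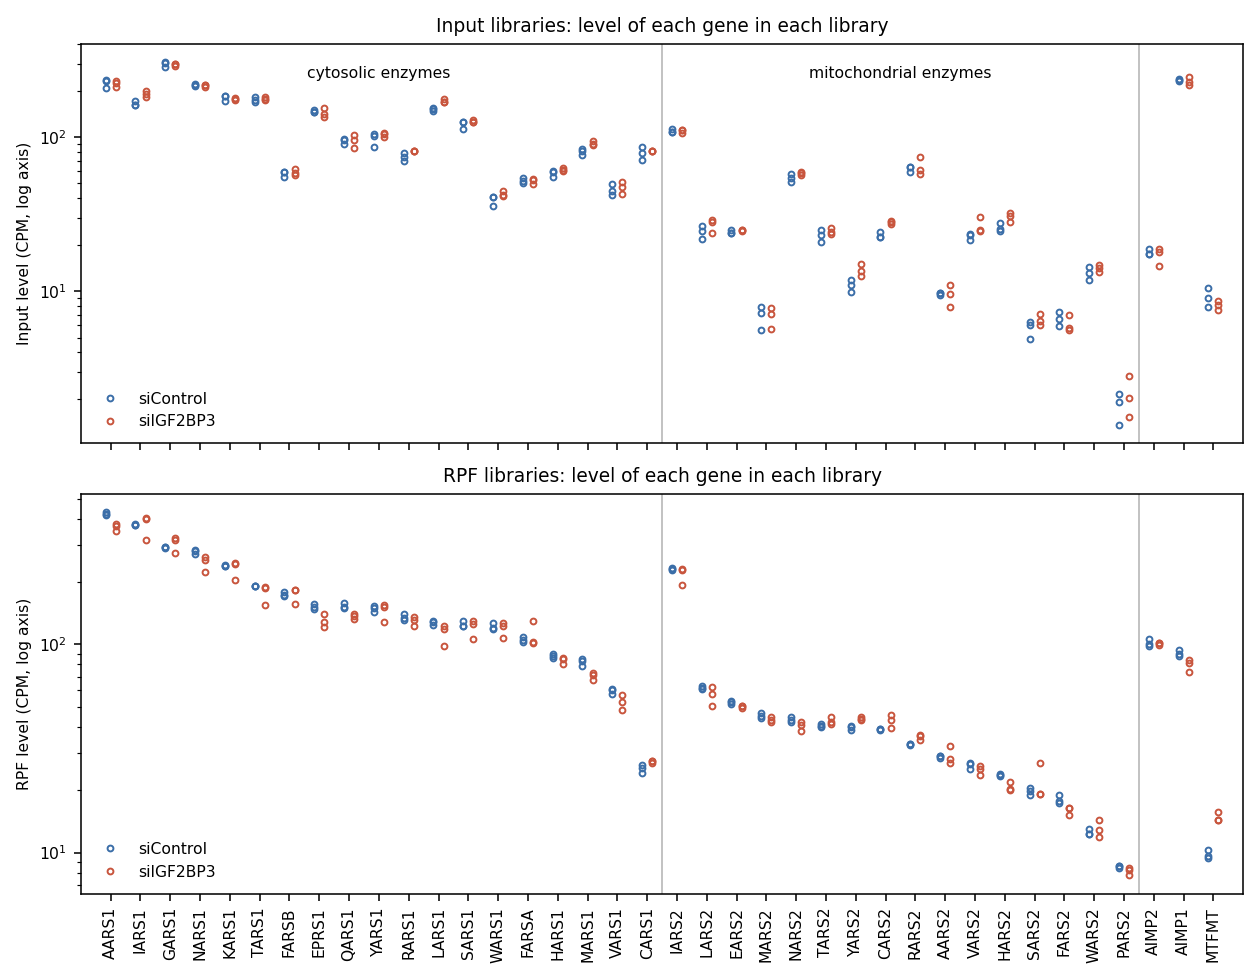
Input level (top) and RPF level (bottom) of each of the 38 genes in each library, in CPM on log axes, with siControl in blue and siIGF2BP3 in red and 1 circle per library. MTFMT, at the right of the RPF panel, is the gene whose siIGF2BP3 libraries, at 14.3 to 15.6 CPM, stand farthest above siControl, at 9.37 to 10.3 CPM.

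Levels of different genes were compared per length, as RPF CPM per kilobase of coding sequence and Input CPM per kilobase of canonical transcript (mean ± SD over siControl, n = 2 for RPF and n = 3 for Input). NARS1, the asparaginyl enzyme, had the highest footprint density at 169.6 ± 2.57. AARS1 followed at 145 ± 0.237. The RPF SD is over replicate 1 and the mean of replicates 2 and 3, so it leaves out the spread between those replicates. For AARS1 these libraries held 422, 416 and 431 CPM. KARS1 and GARS1, which serve both compartments, came next at 133 and 132. AIMP2 followed at 107 ± 4.97, and AIMP1 had 97.3 ± 4.02, so the footprint densities of the scaffold genes were near the top of the range. The AIMP2 value is uncertain, since 28.9% of its exon bases are shared with EIF2AK1 on the opposite strand and the strand setting is not stated. The subunits of the phenylalanyl enzyme were not level, with 69.3 ± 1.93 for FARSA and 98.6 ± 2.31 for FARSB. Among the cytosolic enzymes VARS1, the valyl enzyme, had 15.8 and CARS1, the cysteinyl enzyme, the lowest density at 10.2. At the bottom of all members stood MTFMT at 8.31, VARS2 at 8.11 and PARS2 at 5.97. VARS2 shares 22.0% of its exon bases with GTF2H4 on the same strand, so the VARS2 value is uncertain.

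Pairs were formed for the 13 amino acids with a single cytosolic and a single mitochondrial enzyme gene of matching symbol among the members. The glutamyl and prolyl enzymes (EPRS1 with EARS2 and PARS2) and the phenylalanyl enzymes (FARSA and FARSB with FARS2) were not paired. Their siControl footprints per coding kilobase were 33.6 for EPRS1, 33.3 for EARS2, 5.97 for PARS2, 69.3 for FARSA, 98.6 for FARSB and 13.2 for FARS2. The cytosolic gene was higher in Input per kilobase in 13 of 13 pairs and in footprints per coding kilobase in 12 of 13. The footprint ratio of cytosolic over mitochondrial had a median of 3.62 and reached 14.9 for AARS1 over AARS2 and 7.36 for the tryptophanyl pair. The exception was the cysteinyl pair, where CARS1 was above CARS2 by 2.30-fold in Input while the footprint ratio was 0.441. The methionyl pair had an Input ratio of 12.7 and a footprint ratio of 1.21, and the leucyl pair 6.24 and 1.58. In the opposite direction, the tryptophanyl pair went from an Input ratio of 3.15 to 7.36, and the arginyl pair from 1.26 to 3.62. In siIGF2BP3 the footprint ratios were 0.431 for the cysteinyl and 1.07 for the methionyl pair, and without RPF replicate 1 they were 0.449 and 1.08.

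**Figure D2:**
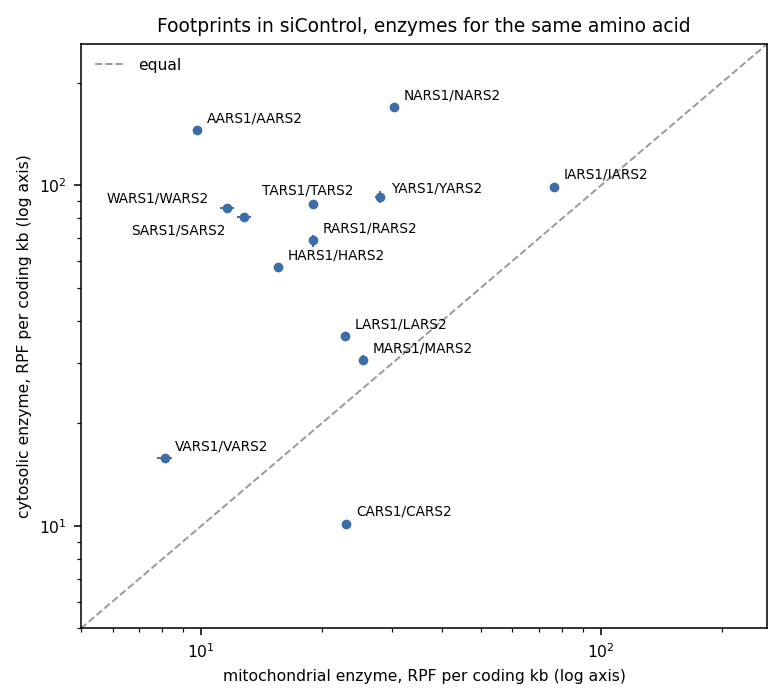
Footprint density of the cytosolic enzyme (vertical) against the mitochondrial enzyme (horizontal) of the same amino acid in siControl, in RPF CPM per coding kilobase on log axes, with bars of 1 SD (n = 2). Of the 13 pairs formed, all except CARS1/CARS2 lie above the dashed line of equality, MARS1/MARS2 and IARS1/IARS2 close to it.

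RPF/Input within a condition compares a gene's share of footprints with its share of transcripts. In siControl 26 of 38 members were above and 6 below equal shares by edgeR's quasi-likelihood test with Benjamini-Hochberg adjustment over 12858 genes, of which 40.8% were above and 49.1% below. The median log2 RPF/Input of the members was 0.65, against -0.15 for all genes tested. Of the cytosolic enzymes 13 of 19 were above and 2 below, with a median of 0.41. Of the mitochondrial enzymes 12 of 16 were above and 3 below, with a median of 1.10. In siIGF2BP3 the counts were 24 above and 7 below, against 36.0% above and 49.0% below of all 12897 genes tested there, with medians of 0.57 for the members and -0.24 for all genes. Without RPF replicate 1 they were 26 above and 7 below, against 37.7% and 50.8% of 12958 genes, with a member median of 0.56.

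The highest RPF/Input among the members belonged to MARS2. Its Input was 5.59, 7.84 and 7.22 CPM and its RPF 45.1, 44.2 and 46.5 CPM in siControl, a log2 RPF/Input of 2.70 ± 0.08 (SE, adjusted p = 7.46e-17, edgeR). AIMP2, at 18.9, 17.3 and 17.3 CPM in Input and 106, 101 and 98.0 CPM in RPF, had 2.52 ± 0.05. All RPF libraries of both genes were more than 5 times above every Input library. PARS2, YARS2 (tyrosyl) and SARS2 (seryl) followed among the mitochondrial enzymes with log2 values of 2.22, 1.86 and 1.80. WARS1 (1.63), FARSB (1.59) and IARS1, the isoleucyl enzyme (1.18), led the cytosolic enzymes. The strand setting of the counting is not stated, and 46.2% of the exon bases of SARS2 are shared with another annotated gene on its strand, and 28.9% of those of AIMP2 with EIF2AK1 on the opposite strand, so these values are uncertain.

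At the other end stood CARS1, AIMP1 and RARS2, the mitochondrial arginyl enzyme. CARS1 measured 70.8, 78.9 and 86.4 CPM in the siControl Input libraries and 25.5, 24.2 and 26.3 CPM in RPF, a log2 RPF/Input of -1.64 ± 0.06 (SE, adjusted p = 3.78e-15, edgeR). AIMP1, at 238, 229 and 236 CPM in Input and 94.1, 87.5 and 90.0 CPM in RPF, had -1.37 ± 0.04, and RARS2 had -0.92 ± 0.05. No RPF library of CARS1 or AIMP1 reached any Input library. The mitochondrial asparaginyl enzyme NARS2 (-0.33), the cytosolic leucyl enzyme LARS1 (-0.25) and the mitochondrial histidyl enzyme HARS2 (-0.14) were the other members below equal shares, and HARS2 lost this call under 8 of 16 alternatives. LARS1 turned to 0.15 when a trend on gene length was removed. The 6 members that did not pass the test were EPRS1 (0.04), GARS1 (-0.02), MARS1 (0.03), SARS1 (0.05), WARS2 (-0.07) and MTFMT (0.10).

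Footprints arise from coding sequence, whereas Input reads cover the untranslated regions as well, so the coding share of a transcript enters RPF/Input. That share was high in these genes, with a median of 79.7% in the members against 49.4% in the 11259 protein-coding genes compared. As counted, 33 of 38 members lay above the median of those genes. With RPF scaled to coding length and Input to transcript length, 20 of 38 did, with a member median of 1.13 on the log2 scale against 1.04. The classes then lay on either side, with 7 of 19 cytosolic enzymes (median 0.76) and 11 of 16 mitochondrial enzymes (median 1.51) above the median of all. CARS1 was still the lowest, with a length-scaled RPF/Input, on the linear scale, of 0.353, and MARS2 and FARSB were highest at 11.2 and 11.6. FARSB, EARS2 and AIMP1 have canonical transcripts with coding shares of only 26.2%, 30.3% and 33.9%, and whether these are the transcripts used in HepG2 was not tested. The scaled values are descriptions for that reason.

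**Figure D3:**
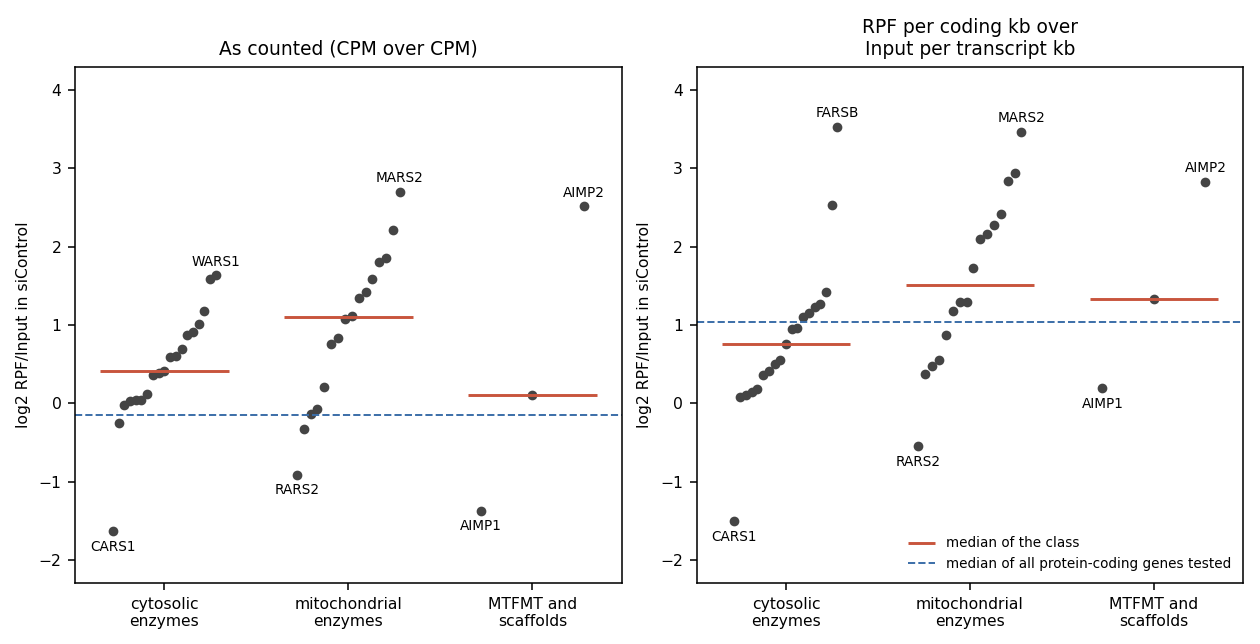
Log2 RPF/Input of each member in siControl, as counted (left) and with RPF per coding kilobase over Input per transcript kilobase (right), by class, with class medians in red and the median of all protein-coding genes tested as a dashed line. The cytosolic median, 0.41 as counted, lies above the dashed line on the left and at 0.76 below it on the right, while the mitochondrial median lies above it in both panels.

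The first comparison asked whether transcripts of these genes changed after IGF2BP3 knockdown. In Input 1 of 38 members was called, the rise of IARS1, against 5.95% of the 14759 genes tested (edgeR, adjusted p under 0.05). The members' log2 fold changes lay between -0.21 (MTFMT) and 0.28 (YARS2), with a median of -0.00 against 0.00 for all genes. IARS1 measured 172, 162 and 161 CPM in the siControl Input libraries and 182, 191 and 199 CPM in siIGF2BP3 Input. All 3 siIGF2BP3 libraries were above all siControl libraries, and by edgeR the log2 fold change was 0.16 ± 0.05 (SE), with an adjusted p of 0.0436. This call held in 5 of 14 alternatives, with adjusted p between 0.023 and 0.201, and the value between 0.13 and 0.18. Its footprints measured 375, 375 and 376 CPM in siControl and 317, 399.7 and 404 CPM in siIGF2BP3. Replicate 1 lay below and the other siIGF2BP3 libraries above every siControl library. Without replicate 1 the footprint change of IARS1 was 0.10 (adjusted p = 0.0167, edgeR).

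In 10 of 38 members, IARS1 included, the siIGF2BP3 Input libraries all lay above the siControl ones, and in none all below. Of all genes 25.0% had no overlap in either direction, a share close to that of the members. How all genes split by direction was not determined. Besides IARS1, the members were LARS1, MARS1, RARS1, HARS1, WARS1, CARS2, HARS2, VARS2 and YARS2. Of these YARS2 had the largest value, from 11.0, 11.9 and 9.84 CPM to 15.1, 13.5 and 12.5 CPM (log2 fold change 0.28 ± 0.11 (SE), adjusted p = 0.165, edgeR). CARS2 had 0.23, VARS2 0.20, HARS2 0.18, MARS1 0.13 and LARS1 0.13, with adjusted p between 0.0905 and 0.206, and none of these passed. The cytosolic enzymes took 2302 to 2396 CPM in siControl and 2388 to 2458 CPM in siIGF2BP3, and the mitochondrial enzymes 421 to 426 and 449 to 455 CPM.

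The second comparison was of footprints. In RPF 1 of 38 members was called, the rise of MTFMT, against 1.65% of 20192 genes tested. The member median was -0.05 against 0.01 for all genes. Values below 0 were found in 25 of 38 members and in 9648 of all 20192 genes. With siControl replicates 2 and 3 summed no member was called, against 0.0673% of 20790 genes (edgeR). In that fit 9 members had an unadjusted p under 0.05, as did 2286 of the 20790 genes. In 18 members the RPF libraries of the conditions did not overlap, against 25.7% of all genes in either direction. Of the 18, 5 had siIGF2BP3 above and 13 had siIGF2BP3 below, and the split of all genes by direction was not determined. The 5 were MTFMT, CARS1, CARS2, RARS2 and YARS2. The 13 were EPRS1, LARS1, MARS1, QARS1, AARS1, NARS1, TARS1, VARS1, EARS2, FARS2, HARS2, PARS2 and AIMP1. AARS1, from 422, 416 and 431 CPM to 350.3, 370.5 and 377 CPM, came closest to the threshold among them, with -0.19 ± 0.04 (SE, adjusted p = 0.0637, edgeR). MARS1 had -0.21 ± 0.06, EPRS1 -0.21 ± 0.05 and HARS2 -0.18 ± 0.06, none of them called.

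These values touch the library that stood apart. siIGF2BP3 RPF replicate 1 was the lowest of its group in 25 of 38 members and in 16 of 19 cytosolic enzymes, and in 54.4% of all genes tested. The summed footprints of the cytosolic enzymes were 2859 CPM in it and 3197 and 3268 CPM in the other libraries of the group, against 3258 to 3312 CPM in siControl. Without that library 10 members lay above and 17 below the siControl range, against 47.4% of all genes in either direction. Of the 38 members 13 were then called in RPF, against 16.5% of 20615 genes. Of them 5 rose, namely MTFMT (0.56), YARS2 (0.14), RARS2 (0.14), GARS1 (0.12) and IARS1 (0.10). The 8 that fell were MARS1 (-0.24), VARS1 (-0.24), AARS1 (-0.18), EPRS1 (-0.18), HARS2 (-0.17), QARS1, the glutaminyl enzyme (-0.15), AIMP1 (-0.14) and NARS1 (-0.11). The AARS1 fall was also called by DESeq2 with all libraries. Of the 13 members, MTFMT was called with the library and without it. The fit without the library kept siControl replicates 2 and 3 separate. The siIGF2BP3 replicates left in it differed by a mean chi-square of 1.15, near sampling noise. Whether the 13 calls hold with the siControl replicates summed was not tested.

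**Figure D4:**
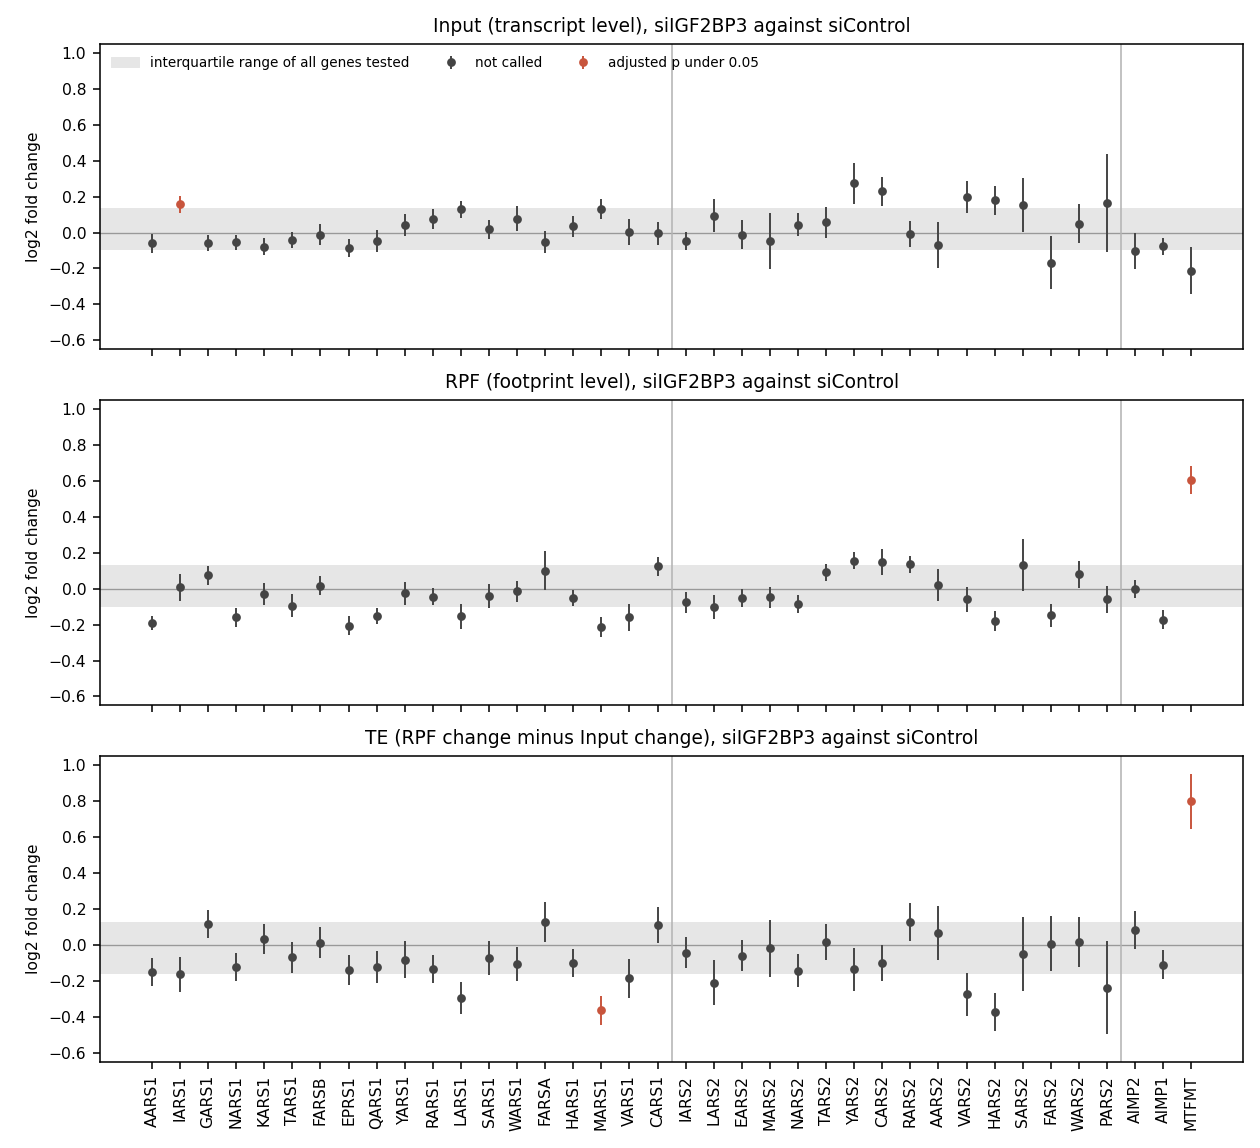
Log2 fold change of siIGF2BP3 against siControl for each member in Input (top), RPF (middle) and translation efficiency (TE, the RPF change minus the Input change; bottom), with bars of 1 SE from edgeR, called members in red and the interquartile range of all genes tested in grey. Called are IARS1 in Input at 0.16, MTFMT in RPF at 0.61 and in TE at 0.80, and MARS1 in TE at -0.37.

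The third comparison, of translation efficiency (TE), tested whether the change in RPF differed from that in Input. Of 38 members 1 rose and 1 fell, against 2.32% of 13395 genes called in either direction, and the member median was -0.09 against -0.01. With siControl RPF replicates 2 and 3 summed, the rise was called and the fall was not, against 1.19% of 13495 genes. The gene that rose was MTFMT (chr15:65001512-65029639, hg38). Its Input was 10.5, 7.84 and 9.05 CPM in siControl and 7.58, 8.14 and 8.63 CPM in siIGF2BP3. Its RPF was 9.62, 9.37 and 10.3 CPM in siControl and 15.6, 14.3 and 14.3 CPM in siIGF2BP3. The Input libraries of the conditions overlapped, while all 3 siIGF2BP3 RPF libraries were above the siControl range, replicate 1 highest.

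By edgeR the footprints of MTFMT rose by 0.61 ± 0.08 in log2 units (SE), with an adjusted p of 0.0172, and the transcript change was -0.21 ± 0.13 (adjusted p = 0.387). The TE change was 0.80 ± 0.15 (SE, adjusted p = 0.00725, edgeR). It held in all 21 alternatives that gave an adjusted p, between 0.69 and 0.90, and DESeq2 gave none for this gene. The RPF call alone held in 9 of 15 alternatives and was lost with the near-identical siControl replicates summed and on leaving out any 1 RPF library other than siIGF2BP3 replicate 1. Log2 RPF/Input of MTFMT was 0.10 in siControl and 0.86 in siIGF2BP3. No exon of another annotated gene overlaps it. MARS2, which acts just before MTFMT on the same tRNA, had a footprint change of -0.05 ± 0.06 and a TE change of -0.02 ± 0.16, neither called.

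The gene that fell was MARS1, the cytosolic methionyl enzyme (chr12:57475445-57517569, hg38). It measured 76.2, 81.5 and 83.9 CPM in the siControl Input libraries and 94.4, 90.8 and 88.5 CPM in siIGF2BP3 Input. Its RPF was 85.1, 78.9 and 83.3 CPM in siControl and 71.0, 67.0 and 72.9 CPM in siIGF2BP3. The conditions did not overlap in either assay, with siIGF2BP3 above in Input and below in RPF. The TE change was -0.37 ± 0.08 (SE, adjusted p = 0.0223, edgeR), while neither assay alone passed, at adjusted p = 0.168 in Input and 0.114 in RPF. With siControl RPF replicates 2 and 3 summed the adjusted p was 0.0502 (edgeR). The call held in 14 of 22 alternatives, with values between -0.40 and -0.32. Its exons share 355 bases with DDIT3, which is transcribed from the other strand and had 28.5 CPM of siControl Input reads and 5.58 CPM of footprints.

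HARS2 and LARS1 had TE values of nearly the same size without passing. HARS2 measured 24.7, 27.8 and 25.2 CPM in siControl Input, 28.3, 30.7 and 32.3 CPM in siIGF2BP3 Input, 23.8, 23.7 and 23.4 CPM in siControl RPF and 20.0, 20.1 and 21.7 CPM in siIGF2BP3 RPF. As in MARS1, the siIGF2BP3 libraries lay above in Input and below in RPF, and the TE value was -0.37 ± 0.11 (SE, adjusted p = 0.0683, edgeR). HARS2 shares 437 exon bases with HARS1 on the opposite strand and 152 with ZMAT2 on its own strand. ZMAT2 had 74.0 CPM of siControl Input reads and 84.8 CPM of footprints, and the part of these overlaps was not tested. LARS1, at 148, 153 and 152 CPM against 177, 168 and 168 CPM in Input and 129, 129 and 124 CPM against 98.1, 119 and 122 CPM in RPF, had -0.30 ± 0.09 (adjusted p = 0.0874, edgeR). Without siIGF2BP3 RPF replicate 1, 5 members were called in TE, against 10.1% of 13479 genes. MTFMT (0.76) and GARS1 (0.18) rose, and MARS1 (-0.38), HARS2 (-0.36) and LARS1 (-0.21) fell.

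**Figure D5:**
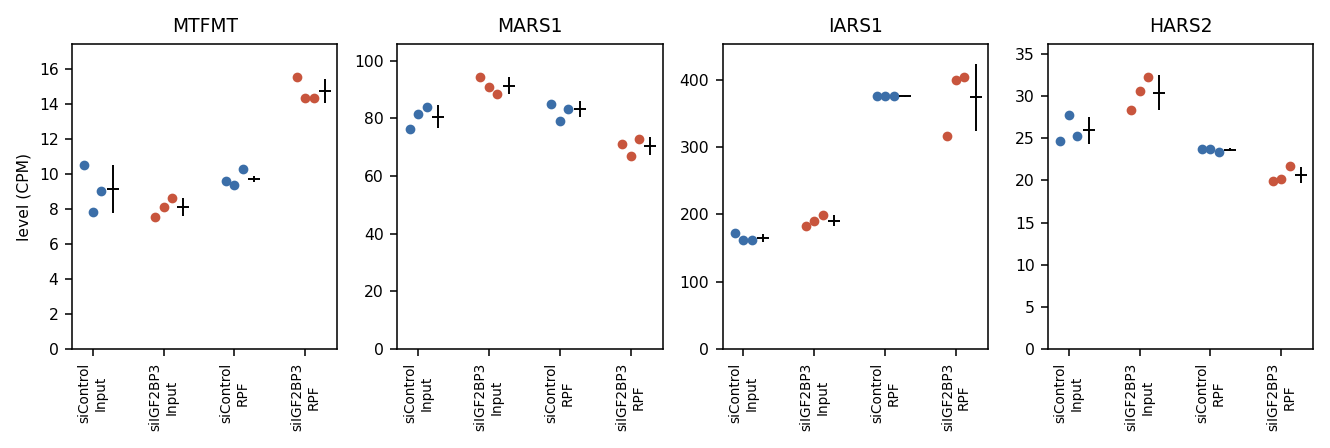
Level in CPM of MTFMT, MARS1, IARS1 and HARS2 in each library of the 4 groups, with 1 point per library in the order of replicates 1 to 3 and black bars for mean ± SD (n = 2 for siControl RPF, n = 3 otherwise). In MTFMT only the siIGF2BP3 RPF group, at 14.3 to 15.6 CPM, stands above the rest; in MARS1 and HARS2 siIGF2BP3 is higher in Input and lower in RPF; in IARS1 the lowest siIGF2BP3 RPF point is replicate 1.

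By class, the complex members and the other cytosolic enzymes were described side by side. Of the 7 enzymes of the multi-synthetase complex 6 had a TE value below 0, with a median of -0.14, and without siIGF2BP3 RPF replicate 1 again 6, with a median of -0.10. Of the 12 enzymes outside it 8 did, with a median of -0.08, and without that library 6, with a median of -0.00. Of the 16 mitochondrial enzymes 11 did, with a median of -0.06, and without it again 11, with a median of -0.09. The order of the classes outside the complex and in mitochondria thus turned on that library. Of all genes tested, 7052 of 13395 had a TE value below 0, and 7151 of 13479 without that library. With all libraries edgeR called none of the 16 mitochondrial enzymes in Input, RPF or TE, where 4, 3 and 2 of them had an unadjusted p under 0.05. Of all genes, 3018 of 14759 in Input, 3250 of 20192 in RPF and 2089 of 13395 in TE did. Without siIGF2BP3 RPF replicate 1 edgeR called YARS2, RARS2 and HARS2 in RPF and HARS2 in TE. HARS2 was also called in TE at a mean of at least 5 CPM. The scaffolds had TE values of -0.11 ± 0.08 (AIMP1) and 0.08 ± 0.11 (AIMP2). The remaining members had TE values between -0.28 (VARS2) and 0.13 (FARSA), with SE of 0.08 to 0.26. The part of the overlap of VARS2 with GTF2H4 in its value was not tested. Summed footprints of the mitochondrial enzymes were 721 to 726 CPM in siControl and 683, 718 and 719 CPM in siIGF2BP3, lowest in replicate 1.

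A list of ATF4 and its targets was set beside the synthetases. Of 18 genes 17 were tested. With all libraries edgeR called none in Input, 2 rises in RPF and 1 in TE, against 5.95%, 1.65% and 2.32% of all genes. In Input 2 of the 17 had an unadjusted p under 0.05, as did 3018 of all 14759 genes. SLC7A11, the cystine transporter, measured 43.8, 44.0 and 44.2 CPM in siControl RPF and 52.4, 64.1 and 62.6 CPM in siIGF2BP3 RPF, with no overlap. Its RPF change was 0.46 ± 0.07 (SE, adjusted p = 0.0225, edgeR) and its TE change 0.39 ± 0.10 (adjusted p = 0.0318). The calls of SLC7A11 held in 9 of 15 alternatives in RPF and in 9 of 22 in TE. PSPH, the last enzyme of serine synthesis, rose in RPF by 0.25 ± 0.05 (adjusted p = 0.0467) and had 0.19 ± 0.07 in Input. The RPF call of PSPH held in 4 of 15 alternatives. With siControl RPF replicates 2 and 3 summed all these calls were lost, at adjusted p = 0.133 and 0.0802 for SLC7A11 in RPF and TE and 0.219 for PSPH in RPF (edgeR). SLC3A2, the partner chain of amino acid transporters, had -0.18 ± 0.06 in Input, and ATF5, a related transcription factor, 0.39 ± 0.15 in RPF and 0.50 ± 0.17 in TE, none called. The ATF5 footprints were 19.1, 13.8 and 13.1 CPM in siIGF2BP3, highest in replicate 1, and without it the values were 0.20 in RPF and 0.34 in TE. ATF4 itself had 0.02 ± 0.04 in Input and 0.11 ± 0.05 in RPF, not called, with a log2 RPF/Input of -3.94 in siControl. DDIT3, another target, had -2.35 there and was not called in the 3 comparisons of the conditions. Without siIGF2BP3 RPF replicate 1, edgeR called 5 rises and 2 falls of this list in RPF, against 16.5% of all genes, and 3 rises in TE, against 10.1%. In RPF, SLC7A11 (0.52), PSPH (0.24), ASNS, the asparagine synthetase (0.16), SLC7A5, an amino acid transporter (0.11), and PSAT1, of serine synthesis (0.09), rose. PCK2, the mitochondrial phosphoenolpyruvate carboxykinase (-0.18), and PHGDH, the first enzyme of serine synthesis (-0.11), fell. In TE, SLC7A11 (0.47), SLC3A2 (0.24) and PSAT1 (0.19) rose.

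A list of 31 genes of tRNA maturation and delivery was set beside them as well, and all were tested. With all libraries edgeR called 1 rise in Input, 1 rise in RPF and none in TE, against the same 5.95%, 1.65% and 2.32% of all genes. In TE 4 of the 31 had an unadjusted p under 0.05, as did 2089 of all 13395 genes. NSUN2, a tRNA cytosine methyltransferase, went from 73.3, 73.8 and 72.9 CPM to 93.0, 87.4 and 84.5 CPM in Input (0.22 ± 0.05 (SE), adjusted p = 0.0158, edgeR). Its TE value was -0.28 ± 0.08 (adjusted p = 0.0587), and DESeq2 called that fall. XPOT, the export receptor of tRNA, went from 96.1, 93.7 and 88.3 CPM to 108, 116 and 114 CPM in RPF (0.30 ± 0.05 (SE), adjusted p = 0.0305). The call of XPOT held in 7 of 15 alternatives and was lost with siControl replicates 2 and 3 summed, at adjusted p = 0.152 (edgeR). ADAT3, a subunit of the tRNA adenosine deaminase, had the largest values, -1.08 ± 0.40 in Input and 1.09 ± 0.49 in TE, at about 1 CPM of Input and not called. EEF1A2, an elongation factor isoform, had 0.48 ± 0.30 in RPF and 0.53 ± 0.53 in TE, not called, and 0.28 and 0.34 without siIGF2BP3 RPF replicate 1. In siControl EEF1A1, the main elongation factor that carries charged tRNA to the ribosome, had a log2 RPF/Input of -2.54 and EEF1A2 of -3.51, the lowest of the list. Counts of EEF1A1 and EEF1B2 were fractional in all 12 libraries, and the multi-mapping options are not stated. The part of shared reads in their values was not tested. Without siIGF2BP3 RPF replicate 1, edgeR called 1 rise and 2 falls of this list in RPF, against 16.5% of all genes, and 3 rises and 2 falls in TE, against 10.1%. In RPF, XPOT rose (0.31), and ELAC2, which trims tRNA 3′ ends (-0.16), and TUFM, the mitochondrial elongation factor (-0.13), fell. In TE, DTD1, a D-aminoacyl-tRNA deacylase (0.30), EEF1B2, an elongation factor subunit (0.19), and EEF1A1 (0.17) rose, and TRMU, which thiolates mitochondrial tRNAs (-0.32), and NSUN2 (-0.25) fell.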

How the data were processed

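Ribosome profiling of HepG2 cells gave 12 libraries in 4 groups of 3 (siControl and siIGF2BP3, Input and RPF), with group and replicate taken from the labels. Adapter trimming by the authors used Cutadapt, alignment to hg38 used STAR and gene counting used featureCounts. Versions, strand and multi-mapping options are not given in the sources used here. The deposited columns hold estimated counts, often fractional and without depth scaling, which were rounded for testing, which changed a library total by at most 0.0445%. Genes were named from GENCODE release 44, which matched 58252 of 58721 identifiers. CPM is the count scaled to the library total.

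Input, RPF and TE (the interaction of assay and knockdown) were tested with edgeR 4.0.16 in R 4.3.3, and RPF against Input within each condition likewise, with filterByExpr, TMM factors within each assay, robust quasi-likelihood tests and Benjamini-Hochberg adjustment over all genes at a threshold of 0.05. Each standard error is the log2 estimate divided by the root of F. The pipeline was tested on simulated data. DESeq2 1.42.0, which the methods name for TE, served as an alternative. Others were a mean of at least 5 CPM or no filter, RLE or upper-quartile factors, coding genes alone, the replicate number as a block, an offset for gene length, TMM over all libraries (for RPF/Input chosen after seeing the data), summed siControl RPF replicates 2 and 3, and each library left out. Replicate spread, which includes counting error, is the error used. Counting error depends on the count of the gene and is not small for the lowest members. The lowest count in any library was 85 for MTFMT and 17 for PARS2. Exact permutation of 3 against 3 libraries cannot give a p under 0.1 and was not used. Members, given by symbol, and gene lists were chosen with earlier results of these data known. The text names all 38 members, IGF2BP3, and in the ATF4 and tRNA lists the called genes and the 2 largest values of each comparison; list genes called only without siIGF2BP3 RPF replicate 1 were named after their values were seen.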

Additional observations from a re-analysis of the deposited data

Results flagged for a closer look

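In 2 members the footprint change after knockdown differed from the transcript change by the test of the interaction (edgeR). MTFMT had a TE change of 0.80 on the log2 scale, with all 3 siIGF2BP3 RPF libraries above all siControl RPF libraries and overlapping Input libraries. MARS1 had a TE change of -0.37, with siIGF2BP3 above siControl in Input and below it in RPF in 3 of 3 libraries each. MARS1 shares exon bases with DDIT3 and ARHGAP9 on the opposite strand, and their part in the value was not tested. No cause was tested for either gene.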

How the results depend on the processing

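The RPF/Input counts, 32 members called in siControl and 31 in siIGF2BP3, stayed between 31 and 37 and between 30 and 33 under every alternative run. LARS1 turned from -0.25 to 0.15 in siControl RPF/Input with the length offset. In Input, 1 member was called, and 0 with DESeq2, RLE factors, upper-quartile factors, no filter or the length offset. Leaving out single libraries gave 0 to 1. In RPF, 1 was called, 2 with DESeq2 and 0 with siControl RPF replicates 2 and 3 summed. Leaving out single libraries gave 0 to 13, where 13 came without siIGF2BP3 RPF replicate 1 and 0 without any other. In TE, 2 were called, 3 with a mean of at least 5 CPM (HARS2 added), and 1 with DESeq2 or with the summed replicates. Leaving out single libraries gave 1 to 5, with 5 without siIGF2BP3 RPF replicate 1. MTFMT was the member called in TE in each fit with an adjusted p, and MARS1 was lost in 8 of 22 alternatives, with adjusted p up to 0.0808. The causes of these shifts were not tested. Same-numbered libraries did not deviate together, with correlations of -0.222 to 0.152, and 0 to 4 of 6 libraries correlated best with their own number. With the replicate block, 1 member was called in Input, 1 in RPF, 1 in TE, and 31 in RPF/Input of each condition. Over all genes it moved the calls in TE from 311 to 125, in Input from 878 to 929 and in RPF from 333 to 379. In RPF, all genes called ranged from 11 without siControl RPF replicate 2 to 3410 without siIGF2BP3 RPF replicate 1, with 663 for DESeq2, and with replicates 2 and 3 summed 14 were called. PARS2, the lowest member in Input at 1.35 to 2.82 CPM, had the largest SE of the members in TE, 0.26.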

Other observations

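Processed pseudogenes of several members had footprint counts with no Input counts. KARS1P1 was at a mean of 3.18 CPM in siControl RPF and 3.38 CPM in siIGF2BP3 RPF, and KARS1P3 at 1.96 and 2.13 CPM, with both listed at 0 in every Input group, while KARS1 itself was at 239 CPM in siControl RPF. FARSBP1 was at 2.58 and 2.64 CPM and RARS1P1 at 0.763 and 0.725 CPM in RPF, also with 0 in Input. KARS1P2 showed the reverse, with 5.26 CPM in siControl Input and 0.0990 CPM in RPF. Whether footprints of 28 to 30 nt were split between a gene and such a copy was not tested.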
